A study of Mus musculus with 6 samples.

Results

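The cell cycle genes described here are 40 genes of DNA replication and mitosis, taken by symbol from a list of names. The rule uses no measured value, but the list was drawn up with earlier results of these data known. They are 40 of the 17987 genes in the table. All 40 were measured in every library, with between 6 and 1280 recovered reads per gene and library, and all 40 passed the filter on low values (3 or more of the 6 libraries with a normalized count of 10 or above), which 16640 genes passed. A replication class of 12 genes (*Mcm2* to *Mcm7*, *Gins1*, *Gins2*, *Pola1*, *Pcna*, *Rrm1* and *Rrm2*) was set against a mitosis class of 11 genes (*Ccnb1*, *Ccnb2*, *Cdk1*, *Plk1*, *Aurka*, *Aurkb*, *Bub1*, *Bub1b*, *Kif11*, *Kif20a* and *Kif23*). The other 17 genes (*Mki67*, *Top2a*, *Tyms*, *Cdc6*, *Cdt1*, *Cdc45*, *Ccne1*, *Ccne2*, *Ccna2*, *Cenpe*, *Cenpf*, *Birc5*, *Cdc20*, *Ube2c*, *Foxm1*, *Nusap1* and *Tpx2*) belong to neither class by name.

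RNA was taken from lung tumor specimens of 3 mice with catalytically mutant *Usp24* (*Usp24* C1695A, mice M134 and M145 with M164) and 3 mice with wild-type *Usp24* (*Usp24* WT; mice M1354, M1364 and M1370), with 1 library per mouse, and values per tumor follow the order of these mice. The question was whether loss of the catalytic function of the deubiquitinase USP24 changed gene expression in EGFR-driven lung tumors. Mice of both groups were C57BL/6J, carried an *Egfr* L858R transgene under a Tet operator (TetO) and rtTA under the promoter of the club cell gene *Scgb1a1*, and were given doxycycline at 0.5 g/liter for 10 weeks. In *Usp24* C1695A mice the catalytic cysteine was replaced by alanine by CRISPR/Cas9, so transcript levels do not check the genotype. *Usp24* had 887, 1054 and 1125 normalized counts in *Usp24* C1695A tumors, against 1194, 895 and 1225 in *Usp24* WT tumors, and these ranges overlapped. The labels give neither the sex nor the age of the mice, and no batch.

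Replication genes act in S phase. CDC6 and CDT1 load the MCM helicase at origins, cyclin E with its kinase, CDC45 and the GINS complex turn it into an active helicase, DNA polymerase alpha primes the new strands, PCNA clamps the polymerases to DNA, and ribonucleotide reductase and thymidylate synthase supply nucleotides. Mitosis genes peak later, in G2 and M phase: cyclin B with CDK1 starts mitosis, PLK1 and the Aurora kinases drive the spindle and centrosomes, BUB kinases watch over the attachment of chromosomes, mitotic kinesins move the poles apart and split the cell, and CDC20 and UBE2C serve the ubiquitin ligase that ends mitosis. Resting lung epithelium divides rarely, and these transcripts are widely used to gauge how many cells of a tumor divide. In a bulk sample fewer dividing cells and less RNA per dividing cell cannot be told apart.

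The libraries held between 7167000 and 14650273 recovered reads. *Usp24* C1695A mouse M164 stood apart: mitochondrial transcripts were 17.2% of its reads against 1.74% to 3.10% in the other 5 libraries, its 9 alveolar type 2 markers summed to 173952 normalized counts against 489262 and 502177 in the other *Usp24* C1695A tumors and 552666 to 626968 in *Usp24* WT tumors, and its 7 macrophage markers summed to 4294 against 22670 to 41181 in the other 5 libraries. Other tissue was uneven between the genotypes. The 7 heart muscle markers summed to 1010, 587 and 5833 normalized counts in *Usp24* C1695A tumors, all above the 353 to 385 of the 3 *Usp24* WT tumors (2 of 7 markers at 0 in M1364, 1 in M1370). The 4 fat markers summed to 28.4, 1119 and 21308 in *Usp24* C1695A tumors, against 13.0 to 20.7 in *Usp24* WT tumors (2 of 4 at 0 in M1364 and in M1370). The 8 B cell markers summed to 230.1, 9533 and 3647 in *Usp24* C1695A tumors, against 286 to 300.2 in *Usp24* WT tumors, and the 9 T cell markers to 207, 1894 and 608 in *Usp24* C1695A tumors, against 188 to 297 in *Usp24* WT tumors. Of genes on the Y chromosome, *Kdm5d*, *Eif2s3y* and *Uty* had reads in each *Usp24* C1695A library and in M1354, whereas M1364 and M1370 had 0 reads of them, so sex and genotype are partly confounded. Their part in the results was not tested beyond the values given without a mouse or with a Y-linked covariate. With that covariate M1354 is in effect the only *Usp24* WT mouse compared with the *Usp24* C1695A mice. Such values therefore cannot separate sex from other traits of M1354.

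The classes are known to be controlled through different promoter elements. Genes of G1 and S phase carry E2F sites, and genes of G2 and M phase carry the cell cycle genes homology region (CHR), which the DREAM and MuvB complexes bind, beside CCAAT boxes, which NF-Y binds. Promoter windows from RefSeq (GRCm38.p6, 250 bases before to 50 after the start site) matched 31 of the 40 genes, the first listed window being used, and were searched on both strands for the CHR in the form TTTGAA and in the rarer form with a CG in its middle, TTCGAA, for the CCAAT box, and for 4 forms of the E2F site, TTTGGCGC, TTTCCCGC, TTTGCCGC and TTTCGCGC. No motif is contained in another, although matches can overlap. CHR was found in 8 of 9 mitosis promoters and 2 of 9 replication promoters, against 14.4% of the promoters of 11435 tested genes. Within the last 100 bases of the window, which reach from 50 bases before to 50 bases after the start, it was found in 8 of 9 mitosis promoters and 0 of 9 replication promoters, against 3.53% of those of tested genes. E2F was found in 5 of 9 replication promoters (*Mcm3*, *Mcm5*, *Mcm6*, *Mcm7* and *Pola1*) and 1 of 9 mitosis promoters (*Cdk1*), against 3.90%. CCAAT was found in all 9 of each class, against 38.1%. A pair of CCAAT boxes spaced 30 to 35 bases apart was found in 4 of 9 mitosis promoters (*Aurka*, *Ccnb1*, *Ccnb2* and *Cdk1*) and 0 of 9 replication promoters, against 2.67%. The letters are shown for the 160 bases before the start of 7 genes, chosen after the matches were seen because they carry these elements singly and in combination, in the direction of the gene and with every match in capitals.
*Cdk1* (mitosis, chr10:69352913-69353072, minus strand): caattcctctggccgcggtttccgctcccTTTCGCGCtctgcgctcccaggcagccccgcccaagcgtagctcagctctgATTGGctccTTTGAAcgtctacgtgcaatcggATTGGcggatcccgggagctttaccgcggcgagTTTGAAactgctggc
*Ccnb2* (mitosis, chr9:70421555-70421714, minus strand): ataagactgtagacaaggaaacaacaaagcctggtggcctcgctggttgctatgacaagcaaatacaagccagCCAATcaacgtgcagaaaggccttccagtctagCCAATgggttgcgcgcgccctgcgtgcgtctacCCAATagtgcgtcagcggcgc
*Kif11* (mitosis, chr19:37376222-37376381, plus strand): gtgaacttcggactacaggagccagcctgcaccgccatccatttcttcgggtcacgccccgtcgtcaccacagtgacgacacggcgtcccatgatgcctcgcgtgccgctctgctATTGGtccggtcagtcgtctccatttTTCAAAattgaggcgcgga
*Cdc20* (other, chr4:118437344-118437503, minus strand): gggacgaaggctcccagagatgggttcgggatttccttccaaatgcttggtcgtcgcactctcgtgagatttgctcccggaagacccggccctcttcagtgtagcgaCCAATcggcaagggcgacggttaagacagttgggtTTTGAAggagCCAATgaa
*Cdc6* (other, chr11:98907991-98908150, plus strand): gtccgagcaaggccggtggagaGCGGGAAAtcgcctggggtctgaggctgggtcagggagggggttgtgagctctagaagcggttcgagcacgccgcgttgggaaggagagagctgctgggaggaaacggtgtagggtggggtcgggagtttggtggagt
*Mcm5* (replication, chr8:75109349-75109508, plus strand): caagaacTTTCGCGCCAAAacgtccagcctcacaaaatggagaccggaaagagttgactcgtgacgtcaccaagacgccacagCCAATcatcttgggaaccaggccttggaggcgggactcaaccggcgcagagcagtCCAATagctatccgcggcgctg
*Mcm6* (replication, chr1:128359706-128359865, minus strand): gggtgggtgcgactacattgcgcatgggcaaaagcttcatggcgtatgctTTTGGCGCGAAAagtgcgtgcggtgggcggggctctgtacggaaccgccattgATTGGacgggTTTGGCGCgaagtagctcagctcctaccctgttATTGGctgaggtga
The stretch of *Cdk1* shows all 3 kinds of element, with 2 CHR, 2 CCAAT boxes and 1 E2F match. That of *Ccnb2* shows 3 CCAAT boxes at even spacing (its nearest CHR lies just after the start site), those of *Kif11* and *Cdc20* show CCAAT followed by CHR close to the start, and those of *Mcm5* and *Mcm6* show overlapping E2F matches with CCAAT boxes and no CHR. The stretch of *Cdc6* holds a single E2F match and neither of the other motifs. A match is a description of the letters in the window, and binding was not measured.

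**Figure D1:**
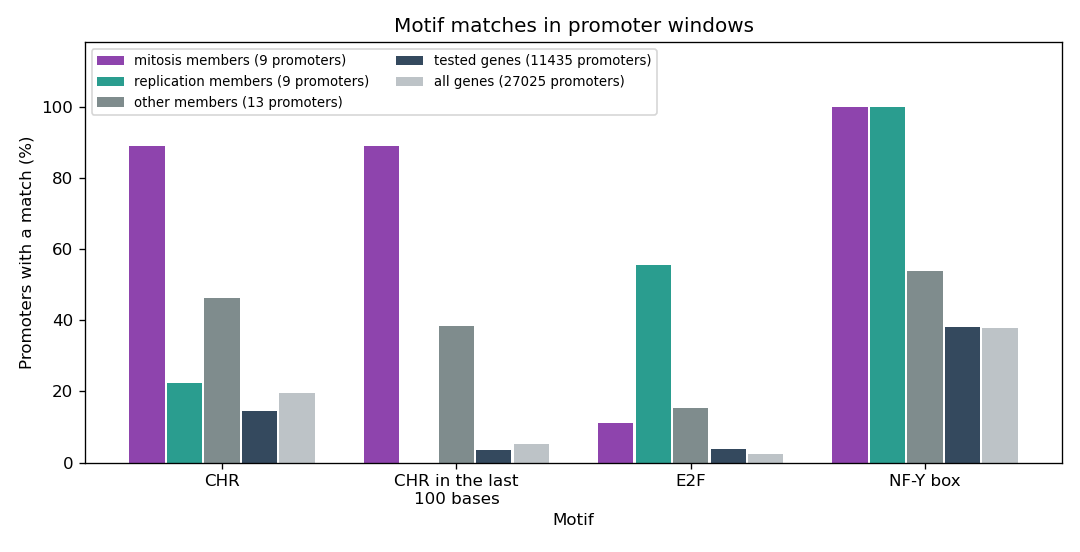
Share of promoter windows (%) with a match to CHR, to CHR in the last 100 bases of the window, to E2F and to the NF-Y box (CCAAT), for the mitosis (9), replication (9) and other (13) genes, for tested genes (11435) and for all genes (27025). CHR was matched in 8 of 9 mitosis promoters and E2F in 5 of 9 replication promoters, against 14.4% and 3.90% of the promoters of tested genes.

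None of the 40 genes was called as changed between the genotypes by limma-trend with Benjamini-Hochberg adjustment over all 16640 genes. The count of members called was 0 of 40, and 0 genes were called among all tested (0%). The lowest adjusted p of a member was 0.738. At an unadjusted p under 0.05, 1 of 40 members was lower in *Usp24* C1695A tumors (*Cdc6*), against 2.93% of all genes, and 0 were higher, against 2.61%. EdgeR called 0 of 40 members (0% of all genes), and DESeq2 called 0 of 40, against 36 of 16254 genes or 0.221%. In 36 of the 40 members the ranges of the genotypes overlapped. The 3 *Usp24* C1695A tumors all lay below the 3 *Usp24* WT tumors for 3 members (*Cdc6*, *Bub1b* and *Pcna*), beside 6.03% of all tested genes, and all above them for 1 member (*Birc5*), beside 5.07%. Both shares of members lie near those over all genes. Of the members 26 had a negative log2 fold change and 14 a positive one, beside 51.7% negative over all tested genes.

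The intervals show what sizes of difference the 3 mice per genotype could and could not bound. For 18 of 40 members the 95% interval of the fold change lay wholly within 2-fold in either direction, among them 8 of 12 replication genes and 3 of 11 mitosis genes. For 13 members the interval reached a 2-fold lower level in *Usp24* C1695A tumors, of which 7 were mitosis genes, and for 11 it reached a 2-fold higher level. The interval's half-width had a median of 0.81 on the log2 scale over the members and 0.70 over all tested genes. For the other 8 of the 11 mitosis genes a 2-fold difference in at least 1 direction was thus within what these mice could not tell from no difference.

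**Figure D2:**
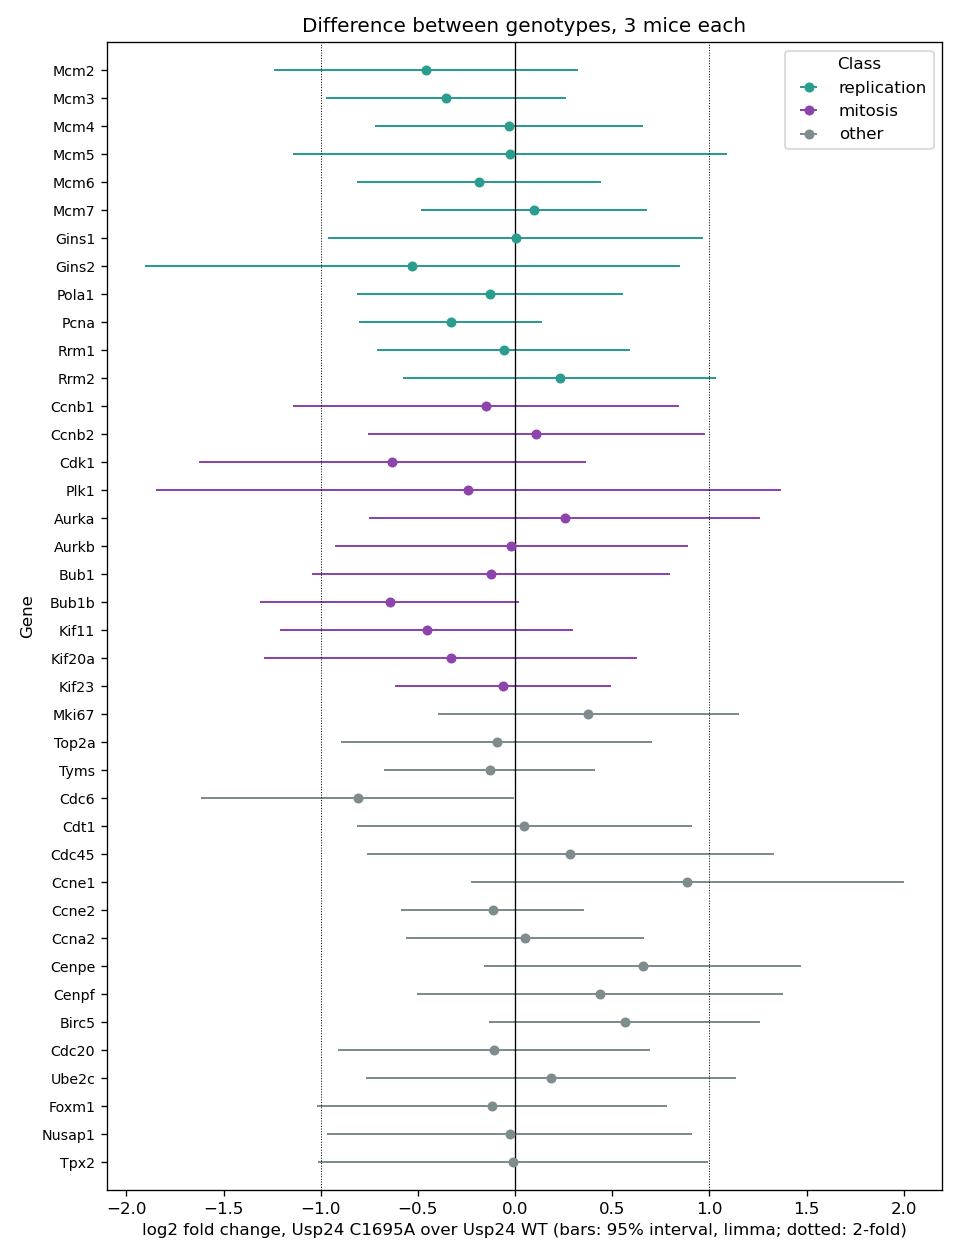
Log2 fold change of each of the 40 genes, *Usp24* C1695A over *Usp24* WT, with its 95% interval from limma-trend (3 mice each), colored by class, with dotted lines at 2-fold. The interval of every gene except *Cdc6* includes 0, and those of 18 genes lie within 2-fold on both sides.

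For most members the difference between genotypes was no larger than the pooled SD within genotypes. Over all 6 libraries the highest exceeded the lowest by more than 2-fold in 60% of members (24 of 40), beside 52.3% of all genes. This ratio takes in both genotypes, had a median of 2.27 beside 2.06 over all tested genes, and ranged up to 4.67 (*Plk1*). The difference between genotypes exceeded the pooled SD within genotypes in 10 of 40 members, or 25%, beside 34.98% of all tested genes. *Usp24* WT mouse M1364 was the lowest library for 18 members and the highest for 0. *Usp24* C1695A mouse M145 was the lowest for 10 members, 5 of them mitosis genes (*Ccnb2*, *Plk1*, *Aurkb*, *Kif11* and *Kif23*), and the highest for 1. *Usp24* C1695A mouse M164 was the highest for 12 members, with 2 replication genes, 0 mitosis genes and 10 of the 17 others among them. For the replication and mitosis genes the highest library was a *Usp24* WT one in 17 of 23 cases, always M1354 or M1370. For the other members it was a *Usp24* WT one in only 3 of 17. The same count over all tested genes was not made, so these counts only describe the mice. The marker sums given above also differed between these mice, and their part in the spread was not tested.

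**Figure D3:**
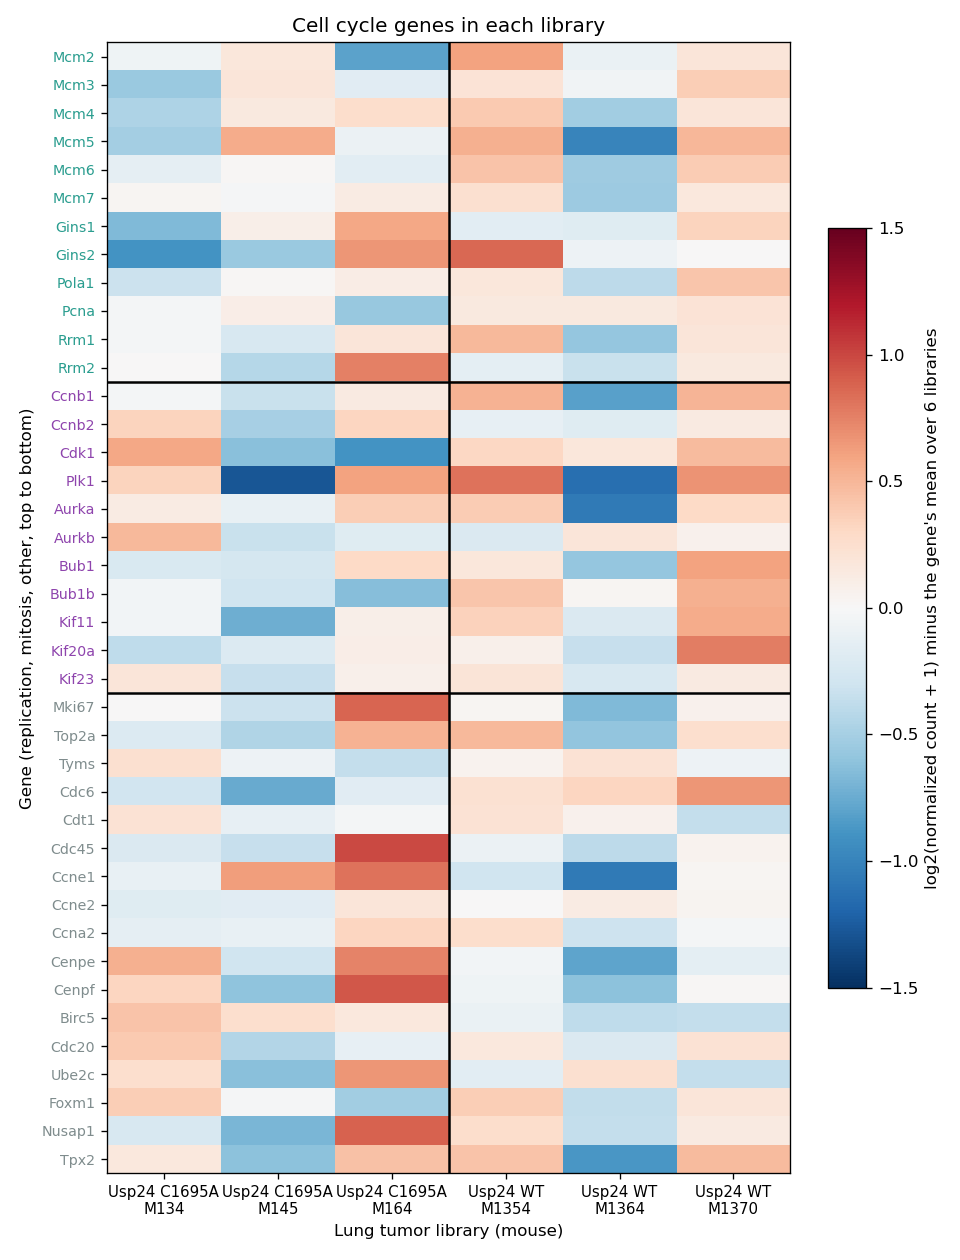
Level of each of the 40 genes (rows, by class) in each library (columns, *Usp24* C1695A mice left and *Usp24* WT mice right) as log2(normalized count + 1) minus the gene's mean over the 6 libraries. Blue cells dominate the column of *Usp24* WT mouse M1364, the lowest library for 18 genes, and the mitosis rows of *Usp24* C1695A mouse M145.

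The general markers of proliferation show this spread. *Mki67*, which encodes the Ki-67 protein of dividing cells, had 484, 383 and 883 normalized counts in *Usp24* C1695A tumors, against 491, 302 and 502 in *Usp24* WT tumors. The highest value was in M164 and the lowest in M1364, and the ranges overlapped (log2 fold change 0.38, SE 0.34, limma adjusted p = 0.788). The log2 fold change of *Mki67* was 0.03 without M164, 0.14 without M1364 and 0.63 without M145. *Top2a*, the topoisomerase that untangles replicated DNA before chromosomes part, had 294, 247 and 489 normalized counts in *Usp24* C1695A tumors, against 476, 225 and 404 in *Usp24* WT tumors. The same mice were highest and lowest, and the groups overlapped almost wholly (log2 fold change −0.09, SE 0.35, limma adjusted p = 0.949).

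Of the replication class, 9 of 12 genes had a negative log2 fold change and 3 a positive value, and the median was −0.09 beside −0.02 over all tested genes. It rested on single mice, with −0.36 without M1364 and 0.03 without M1370. With a Y-linked covariate, where M1354 is in effect the only *Usp24* WT mouse compared, it was −0.40. *Pcna*, the sliding clamp, was the most abundant member both by count and per kilobase of exon. It had 1022, 1120 and 707 normalized counts in *Usp24* C1695A tumors, against 1158, 1156 and 1203 in *Usp24* WT tumors. All 3 *Usp24* C1695A values were below all 3 *Usp24* WT values, but M145 missed the lowest *Usp24* WT value by little, and M164 alone lay far below (log2 fold change −0.33, 95% interval −0.80 to 0.14, limma adjusted p = 0.738). Without M164 the log2 fold change of *Pcna* was −0.13.

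The helicase subunits *Mcm2* to *Mcm7* form a ring around DNA. *Mcm2* had 103, 122 and 61.4 normalized counts in *Usp24* C1695A tumors, against 164.1, 100.8 and 122 in *Usp24* WT tumors. *Mcm3* had 110, 185 and 144.5 in *Usp24* C1695A tumors, against 188, 157 and 211 in *Usp24* WT tumors. Both had lower means in *Usp24* C1695A tumors with overlapping ranges (log2 fold changes −0.46 and −0.36, limma adjusted p = 0.756 and 0.761). For the other 4 subunits the log2 fold changes lay between −0.19 (*Mcm6*) and 0.10 (*Mcm7*), and all 4 were lowest in *Usp24* WT mouse M1364. *Mcm5*, for example, averaged 72.3 ± 27.8 normalized counts in *Usp24* C1695A tumors and 78.0 ± 37.7 in *Usp24* WT tumors (SD, n = 3 each), and *Mcm6* averaged 391 ± 25.9 in *Usp24* C1695A tumors and 464 ± 153 in *Usp24* WT tumors.

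GINS joins the MCM ring and CDC45 to make the active helicase. *Gins2* was the least abundant member, with 6.08, 7.91 and 19.8 normalized counts in *Usp24* C1695A tumors, against 22.9, 11.5 and 12.2 in *Usp24* WT tumors. These rest on 6 to 22 reads, the interval of the log2 fold change of −0.53 ran from −1.90 to 0.85, and 67.3% of its exon bases are shared with *Gse1* on the opposite strand in the GENCODE M21 annotation, so its level is uncertain where the counting ignored strand. *Gins1* averaged 43.4 ± 18.02 normalized counts in *Usp24* C1695A tumors and 41.3 ± 8.97 in *Usp24* WT tumors, and *Pola1*, the catalytic subunit of DNA polymerase alpha, 111 ± 16.9 in *Usp24* C1695A tumors and 124 ± 33.6 in *Usp24* WT tumors. The large subunit of ribonucleotide reductase, *Rrm1*, averaged 527 ± 77.0 in *Usp24* C1695A tumors and 570.3 ± 200 in *Usp24* WT tumors, and its small subunit *Rrm2* averaged 119 ± 51.2 in *Usp24* C1695A tumors and 96.7 ± 16.6 in *Usp24* WT tumors (SD, n = 3 each). *Rrm1* and *Rrm2*, whose products work as 1 enzyme, had log2 fold changes of −0.06 and 0.23.

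Among the remaining genes of G1 and S phase, *Cdc6* came nearest to a difference. *Cdc6*, the loader of the MCM ring, had 34.5, 24.7 and 37.6 normalized counts in *Usp24* C1695A tumors, against 49.9, 53.3 and 67.7 in *Usp24* WT tumors. The groups did not overlap, and the level in *Usp24* C1695A tumors was 0.571 of that in *Usp24* WT tumors (95% interval 0.327 to 0.997), but the call failed the correction (log2 fold change −0.81, limma adjusted p = 0.738). Its partner in loading, *Cdt1*, averaged 31.0 ± 4.04 normalized counts in *Usp24* C1695A tumors and 30.2 ± 6.05 in *Usp24* WT tumors. *Cdc45* averaged 41.8 ± 23.8 in *Usp24* C1695A tumors and 31.3 ± 4.97 in *Usp24* WT tumors, with the high value in M164 alone. *Ccne1*, cyclin E1, had the largest positive log2 fold change of the members: it had 20.3, 34.6 and 39.6 normalized counts in *Usp24* C1695A tumors, against 17.7, 10.1 and 22.6 in *Usp24* WT tumors. The groups overlapped at M134 and M1370 (log2 fold change 0.89, 95% interval −0.23 to 2.001, limma adjusted p = 0.738). The values of *Ccne1* rest on only 7 to 35 reads. Its paralog *Ccne2*, cyclin E2, averaged 237 ± 34.9 normalized counts in *Usp24* C1695A tumors and 255 ± 11.5 in *Usp24* WT tumors, the narrowest spread over the mice of all members. Of the exon bases of *Ccne2*, 17.4% are shared with *Ints8* on the opposite strand, so its level is uncertain where the counting ignored strand. *Tyms*, thymidylate synthase, averaged 197 ± 41.1 in *Usp24* C1695A tumors and 214 ± 21.3 in *Usp24* WT tumors, and *Ccna2*, cyclin A2 of S and G2 phase, 144 ± 26.6 in *Usp24* C1695A tumors and 139 ± 27.5 in *Usp24* WT tumors (SD, n = 3 each).

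**Figure D4:**
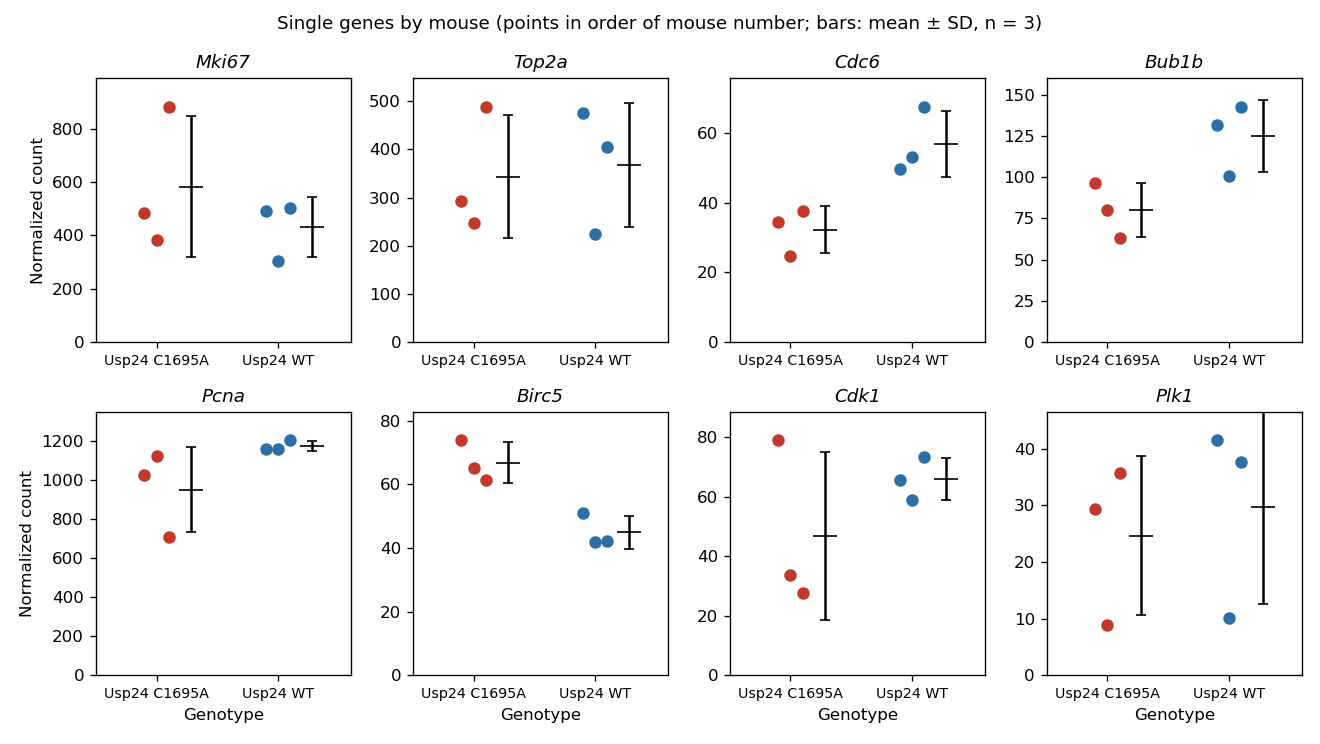
Normalized counts of 8 genes by mouse (points, in order of mouse number), with *Usp24* C1695A left, *Usp24* WT right and bars for mean ± SD (n = 3). *Cdc6*, *Bub1b* and *Pcna* lie lower and *Birc5* higher in all 3 *Usp24* C1695A tumors, while *Mki67*, *Top2a*, *Cdk1* and *Plk1* overlap.

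In the mitosis class 9 of 11 genes had a negative log2 fold change and 2 a positive value, and the median was −0.15 beside −0.02 over all tested genes. It too rested on single mice, with −0.59 without M1364 and 0.0052 without M1370. With array weights it was −0.52. That fit gave most weight to M145 (2.91) and M1354 (2.86) and least to M164 (0.27) and M1364 (0.35). *Bub1b*, which encodes the checkpoint protein BUBR1, had 96.3, 80.1 and 63.4 normalized counts in *Usp24* C1695A tumors, against 132, 100.8 and 143 in *Usp24* WT tumors. The groups did not overlap, with M134 just under M1364 (log2 fold change −0.65, 95% interval −1.31 to 0.02, limma adjusted p = 0.738). Its relative *Bub1* averaged 48.5 ± 11.2 normalized counts in *Usp24* C1695A tumors and 55.1 ± 21.5 in *Usp24* WT tumors. When each mouse was left out in turn, the log2 fold change of *Bub1b* lay between −0.79 and −0.49 and its limma adjusted p was 0.391 or above.

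*Cdk1*, the kinase that starts mitosis, had 79.1, 33.6 and 27.7 normalized counts in *Usp24* C1695A tumors, against 65.4, 59.0 and 73.3 in *Usp24* WT tumors. M134 was the highest of all 6 tumors and M145 and M164 were the lowest, so the *Usp24* C1695A tumors lay on both sides of the *Usp24* WT range (log2 fold change −0.63, SE 0.44, limma adjusted p = 0.748). The log2 fold change of *Cdk1* was −1.08 without M134 and −0.34 without M164. Its cyclins followed other patterns. *Ccnb1* averaged 51.5 ± 8.49 normalized counts in *Usp24* C1695A tumors and 61.7 ± 27.3 in *Usp24* WT tumors, with its lowest value in M1364, and *Ccnb2* averaged 44.0 ± 13.2 in *Usp24* C1695A tumors and 39.5 ± 4.92 in *Usp24* WT tumors, with its lowest value in M145. *Plk1*, a kinase of centrosomes and spindle, had 29.4, 8.90 and 35.6 normalized counts in *Usp24* C1695A tumors, against 41.6, 10.1 and 37.6 in *Usp24* WT tumors. In each genotype 1 mouse (M145 and M1364) lay far below its group mates, and the groups overlapped (log2 fold change −0.24, 95% interval −1.85 to 1.37, limma adjusted p = 0.934). *Aurka* averaged 67.5 ± 11.4 in *Usp24* C1695A tumors and 61.3 ± 28.3 in *Usp24* WT tumors, and *Aurkb* 32.4 ± 10.7 in *Usp24* C1695A tumors and 32.0 ± 4.56 in *Usp24* WT tumors (SD, n = 3 each).

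The 3 kinesins of the mitosis class had lower means in *Usp24* C1695A tumors without passing the test, while *Cenpe*, a kinesin outside the class, had a higher one. *Kif11*, which pushes the spindle poles apart, had 116, 71.2 and 127 normalized counts in *Usp24* C1695A tumors, against 152, 102 and 175 in *Usp24* WT tumors. *Kif20a*, which acts in cytokinesis, had 25.3, 28.7 and 35.6 in *Usp24* C1695A tumors, against 35.3, 25.9 and 57.3 in *Usp24* WT tumors. *Kif23*, of the central spindle, was the most abundant gene of the class by count and had 242, 168 and 226 in *Usp24* C1695A tumors, against 245, 181 and 235 in *Usp24* WT tumors. For each kinesin the ranges overlapped (log2 fold changes −0.46, −0.33 and −0.06, limma adjusted p = 0.755, 0.847 and 0.952). Of the exon bases of *Kif20a*, 29.3% are shared with *Cdc23*, a gene on the opposite strand.

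Other genes of mitosis had mixed signs. *Birc5*, which encodes survivin of the chromosomal passenger complex, had 74.0, 65.3 and 61.4 normalized counts in *Usp24* C1695A tumors, against 50.9, 41.7 and 42.3 in *Usp24* WT tumors. It was the only member with all 3 *Usp24* C1695A values above all 3 *Usp24* WT values (log2 fold change 0.56, 95% interval −0.13 to 1.26, limma adjusted p = 0.738). *Cenpe*, a kinesin of the kinetochore, had 171, 96.0 and 198 normalized counts in *Usp24* C1695A tumors, against 114, 67.7 and 106 in *Usp24* WT tumors, with overlap only of M145 with the *Usp24* WT range (log2 fold change 0.66, 95% interval −0.16 to 1.47, limma adjusted p = 0.738). The kinetochore gene *Cenpf* averaged 138 ± 68.4 in *Usp24* C1695A tumors and 94.8 ± 21.2 in *Usp24* WT tumors. *Cdc20*, an activator of the anaphase-promoting complex (APC/C), averaged 53.3 ± 16.04 in *Usp24* C1695A tumors and 56.4 ± 9.08 in *Usp24* WT tumors, and *Ube2c*, its ubiquitin-conjugating enzyme, 58.2 ± 24.4 in *Usp24* C1695A tumors and 48.5 ± 10.8 in *Usp24* WT tumors. The highest value of *Ube2c* was in M164, where the 1 skeletal muscle marker of the table, *Myl1*, had 6767 normalized counts against 1.44 to 7.91 in the other 5 libraries, and 22.8% of the exon bases of *Ube2c* are shared on the opposite strand with *Tnnc2*, a muscle troponin. *Tnnc2* itself has no values in the deposited counts, and the part of that overlap in the value of *Ube2c* was not tested. *Foxm1*, a transcription factor for many mitosis genes, averaged 42.7 ± 13.0 in *Usp24* C1695A tumors and 46.0 ± 11.8 in *Usp24* WT tumors. Of the spindle genes, *Nusap1* averaged 154 ± 91.2 in *Usp24* C1695A tumors and 143 ± 31.0 in *Usp24* WT tumors, and *Tpx2* 125 ± 42.8 in *Usp24* C1695A tumors and 131 ± 57.2 in *Usp24* WT tumors (SD, n = 3 each).

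The balance of mitosis against replication was then compared by mouse. The mean log2(normalized count + 1) of the replication class was 6.96, 7.27 and 7.34 in *Usp24* C1695A tumors, against 7.58, 6.92 and 7.52 in *Usp24* WT tumors, and that of the mitosis class was 5.99, 5.41 and 5.89 in *Usp24* C1695A tumors, against 6.13, 5.49 and 6.30 in *Usp24* WT tumors. M1364 was low in both classes, whereas M134 was low in replication and M145 in mitosis. The mitosis mean minus the replication mean was −0.97, −1.86 and −1.45 in *Usp24* C1695A tumors, against −1.45, −1.43 and −1.22 in *Usp24* WT tumors. The *Usp24* C1695A tumors averaged −1.43 ± 0.44 and the *Usp24* WT tumors −1.37 ± 0.13 (SD, n = 3 each). The difference of −0.06 was smaller than the spread within either genotype, and the *Usp24* C1695A tumors lay on both sides of the *Usp24* WT range. With wider classes, which take in the other genes by the phase they act in, the difference was 0.07. No p is given for these means, since they are scores over chosen genes.

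**Figure D5:**
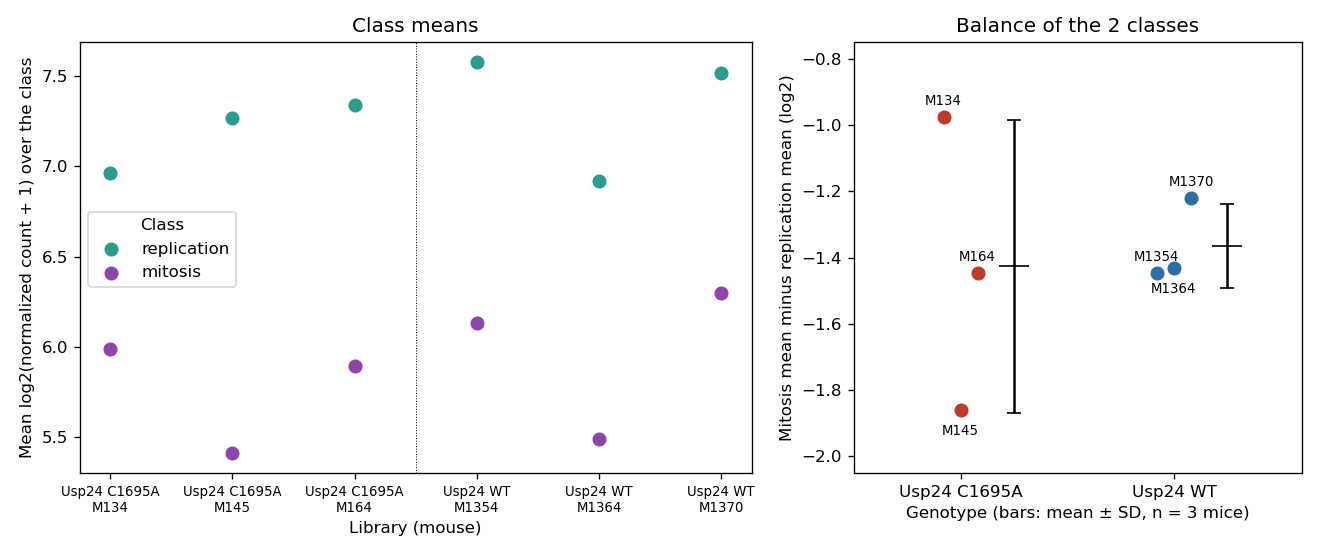
Left, mean log2(normalized count + 1) of the replication and mitosis classes in each library. Right, the mitosis mean minus the replication mean for each mouse, with mean ± SD (n = 3): the *Usp24* C1695A mice range from −1.86 (M145) to −0.97 (M134) and the *Usp24* WT mice from −1.45 to −1.22.

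Members of a class tended to vary together over the 6 mice. This describes libraries that differ in tissue makeup and depth, and the part of these in the correlations was not tested. Pearson's r between genes had a median of 0.46 over 66 pairs within the replication class, 0.50 over 55 pairs within the mitosis class and 0.32 over 132 pairs between the classes. Among *Mcm2* to *Mcm7* all 15 pairs were positive, with a median of 0.64. Some members went their own way. For these, r with the mean of the rest of the class was −0.05 for *Pcna*, 0.12 for *Aurkb*, 0.14 for *Rrm2*, 0.22 for *Mcm2* and 0.38 for *Cdk1*. It was 0.93 for *Pola1* and *Mcm4* and 0.92 for *Kif11* and *Kif23*. The pattern over mice of genes with a CHR match (16) and with an E2F match (8) differed in M145, where the median deviation from the gene's mean was −0.39 for genes with CHR and 0.001 for genes with E2F, and in M134 and M164, where it was 0.08 and 0.31 for CHR and −0.21 and −0.13 for E2F. In *Usp24* WT mice M1354, M1364 and M1370 it was 0.22, −0.32 and 0.20 for CHR and 0.24, −0.22 and 0.40 for E2F. The medians thus had opposite signs in *Usp24* C1695A mice M134 and M164 and the same sign in each of the *Usp24* WT mice, and this difference was not tested. Between genotypes the median log2 fold change was −0.08 for genes with CHR and −0.16 for genes with E2F. *Cdk1* and *Mcm7* have both matches and count in both groups.

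The wider cell cycle machinery, in 13 lists of 210 genes outside the 40, was examined beside them. Of these genes 206 were tested, 104 had a positive log2 fold change, the median was 0.003, and 0 were called by limma-trend. At an unadjusted p under 0.05, 3 were higher in *Usp24* C1695A tumors (*Pold4*, *Cenpa* and *Cenpq*) and 1 was lower (*Ctps*), beside 2.61% and 2.93% of all genes. *Cenpa*, the histone H3 variant of centromeres, had 119, 96.0 and 129 normalized counts in *Usp24* C1695A tumors, against 65.4, 40.3 and 81.8 in *Usp24* WT tumors (log2 fold change 0.91, limma adjusted p = 0.738). *Ctps*, which makes CTP, had 1088, 1149 and 554 in *Usp24* C1695A tumors, against 1852, 1239 and 1702 in *Usp24* WT tumors (log2 fold change −0.83, limma adjusted p = 0.738). Neither pair of groups overlapped.

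By list, kinetochore genes had a median log2 fold change of 0.19 (15 of 24 positive) and genes of the spindle checkpoint and passenger complex 0.20 (9 of 12 positive), whereas genes of mitotic entry had −0.15 (4 of 12 positive) and nucleotide supply −0.08 (2 of 11 positive). CDK inhibitors, the brakes on the cycle, had the highest median of the 13 lists, 0.44, beside −0.02 over all tested genes. Of these inhibitors 5 of 7 were positive and 0 were called. Their summed normalized counts overlapped, with 11027, 8614 and 8019 in *Usp24* C1695A tumors, against 8008, 10349 and 10341 in *Usp24* WT tumors. *Cdkn3*, which encodes a phosphatase that inactivates CDKs, had 24.3, 16.8 and 33.7 normalized counts in *Usp24* C1695A tumors, against 16.6, 8.64 and 11.3 in *Usp24* WT tumors, without overlap (log2 fold change 0.97, 95% interval −0.16 to 2.096, limma adjusted p = 0.738). *Cdkn1c*, which encodes p57, had 471, 674 and 1061 in *Usp24* C1695A tumors, against 325, 780 and 277 in *Usp24* WT tumors, with overlap. *Wee1*, the kinase that holds CDK1 in check, had 522, 324 and 246 in *Usp24* C1695A tumors, against 757, 430 and 553 in *Usp24* WT tumors, also with overlap (log2 fold change −0.70, limma adjusted p = 0.738). The median r with the mean of the mitosis class was 0.64 for genes of the spindle and cytokinesis, 0.61 for mitotic entry and 0.52 for the kinetochore, beside 0.01 over all tested genes.

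The genes whose pattern over the 6 mice was most like the mean of the mitosis class, among genes outside all these lists with an SD of at least 0.2, were *Ppp1r13b* (r = 0.993), *Sh3bp4* (r = 0.987), *Srp68* (r = 0.986), *Pard6g* (r = 0.984) and *Hhip* (r = 0.984), over 6 libraries. These genes were picked by r itself from a search over the tested genes, and such a search yields high r by chance with 6 libraries. How many genes would reach these values by chance was not tested. The r values thus only describe these mice, and a link of these genes to mitosis was not tested. *Hhip*, which encodes an inhibitor of Hedgehog ligands, had 1089, 676 and 899 normalized counts in *Usp24* C1695A tumors, against 1262, 707 and 1518 in *Usp24* WT tumors.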

How the data were processed

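Total RNA (3 μg) of lung tumor specimens was sequenced in 150-bp paired reads, with 1 library per mouse and 3 mice per genotype. The authors deposited a table of normalized counts, a signal that is, reads per gene scaled by a factor for each library. HISAT2 2.1.0 and the build mm39 are named in the submitters' processing notes, while the read counter, its use of strand, the annotation and the filter on genes are not given in the sources used here. All 107922 values were whole multiples of a step per library within 1e-06, so whole reads were recovered (for M145 the step is so near 1 that this rests on the residuals). Genes at 10 or more in at least 3 of 6 libraries (16640) were tested with limma-trend 3.58.1 (R 4.3.3) on log2(value + 1), all 6 libraries, no covariate, with Benjamini-Hochberg adjustment over all genes and a threshold of 0.05. The methods of the study name DESeq; edgeR 4.0.16 and DESeq2 1.42.0 were run on recovered reads as alternatives, beside other pseudocounts (0.5 and 5), no or a stricter filter (50), quantile normalization, array weights, a Y-linked covariate (mean of *Kdm5d*, *Eif2s3y* and *Uty*), wider classes and leaving out each mouse. Fold changes on this scale understate those of low genes, and p-values measure the spread between these mice. On data simulated with 3 libraries per genotype and an assumed dispersion of 0.05, which need not be that of these mice, the fit recovered 54 of the 100 genes with a 2-fold change and 100 of those with a 4-fold change, and made 11 false calls among 16409 genes. The members, classes and gene lists were chosen with earlier results of these data known. All 40 members may be named. Values per mouse are given for *Mki67*, *Top2a* and, in each class, the 4 genes with the lowest p and those of highest and lowest mean. Of each list, up to 3 genes of lowest p could be named. From these, values per mouse are given only for *Cenpa*, *Ctps*, *Cdkn3*, *Cdkn1c* and *Wee1*. Of the 10 genes most like the mitosis mean 5 are named, with values per mouse only for *Hhip*. The values of *Ube2c* and *Myl1* were seen before these genes were singled out, and *Tnnc2*, which has no values, was named for its overlap. Exon lengths and overlaps came from GENCODE M21 and promoters from RefSeq, both of GRCm38, and were matched by gene identifier or symbol. Figures were drawn with Python 3.11.15, pandas 2.3.3, numpy 2.4.6 and matplotlib 3.10.9.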

Additional observations from a re-analysis of the deposited data

How the results depend on the processing

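No member was called at an adjusted p under 0.05 under any alternative run (lowest adjusted p 0.0847, with array weights). Over all genes the count of calls was 0 in limma-trend and 36 with DESeq2, and ranged from 0 to 40 when each mouse was left out (40 without M134 and 5 without M1354). The count of members with an unadjusted p under 0.05 was 1 (*Cdc6*), beside 5.54% of all genes. It was 0 with the stricter filter, which tests 29 members and drops *Cdc6*, beside 5.39% of the genes tested. With edgeR it was 0 (beside 6.9%) and with quantile normalization 2 (*Bub1b* and *Cdc6*, beside 4.64%). With array weights it was 11, all lower (*Bub1b*, *Nusap1*, *Tpx2*, *Rrm1*, *Plk1*, *Cdk1*, *Gins2*, *Cdc6*, *Top2a*, *Ccnb1* and *Kif11*), but 4229 of all genes, 25.4%, also reached an unadjusted p under 0.05 in that fit, and 0 genes were called. The array weights were highest for M145 and M1354 and lowest for M164 and M1364. The count of members ranged from 0 to 2 when each mouse was left out. *Bub1b* and *Cdk1* were lower without M134, where 11.7% of all genes reached an unadjusted p under 0.05. *Cenpe* and *Cenpf* were higher without M145, beside 6.30% of all genes. *Mcm6* and *Bub1b* were lower without M1364, beside 12.1%. *Cdc6* was lower without M164, beside 3.28%, and the count was 0 without M1354 (2.81%) or M1370 (1.44%). The median log2 fold change of the replication class was −0.40 with the Y-linked covariate, a fit that in effect compares the *Usp24* C1695A mice with M1354 alone. That of the mitosis class ranged from −0.59 (without M1364) to 0.0052 (without M1370) when each mouse was left out. The log2 fold change of *Mki67* was −0.18 with array weights. Without M145, M1354 or M1370 some signs turned: between −0.20 and 0.10 for *Kif23*, −0.86 and 0.34 for *Plk1* and −0.41 and 0.13 for *Top2a* over all 6 mice left out, all with an adjusted p of at least 0.569. The cause of these shifts was not tested. For the other 12 members with values per mouse no sign turned. Leaving out each mouse gave log2 fold changes of −0.99 to −0.21 for *Gins2*, −0.66 to −0.17 for *Mcm2*, −0.59 to −0.03 for *Kif20a*, −0.68 to −0.20 for *Kif11* and 0.42 to 0.97 for *Cenpe*. The mitosis minus replication difference lay between −0.29 and 0.16 when each mouse was left out. It was −0.31 with array weights and 0.02 with the Y-linked covariate. These moved from the main value by less than the pooled SD within genotypes, 0.33 (0.44 in *Usp24* C1695A and 0.13 in *Usp24* WT tumors). The replication median, 0.03 without M1370, moved by less than the pooled SD of its class mean, 0.29. With the Y-linked covariate it moved by more than that. The mitosis median also moved by more than the pooled SD of its class mean, 0.37, without M1364. No paired analysis was possible because the mouse numbers are not shared between the genotypes. With 3 mice per genotype and 7167000 to 14650273 reads, the intervals of 22 of the 40 members reached a 2-fold difference.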
